A study of Mus musculus with 10 samples.

Results

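The CCAAT/enhancer-binding protein (C/EBP) family was followed through 5 genes, Cebpa, Cebpb, Cebpd, Cebpe and Cebpg, taken by gene symbol from a read count table of 24015 genes. All 5 were in the table and all 5 passed the filter on low counts, which kept 12971 genes. RNA sequencing was done on MAF9 cells, which are C57BL/6 mouse bone marrow cells transduced with the leukemia fusion gene MLL-AF9 and grown with interleukin-3. Every group thus carried the fusion. After 4 days with MM-401 (which blocks the binding of MLL1 to WDR5), EPZ5676 (a DOT1L inhibitor), MI-2-2 (a MENIN inhibitor), iBET or the solvent DMSO, 2 libraries were made per condition, 10 in all. Each inhibitor was given at its IC50 dose, so doses were matched on growth and not on concentration. The study's methods call the 2 libraries of a condition duplicate biological samples, and none of the 10 came from cells without MLL-AF9.

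C/EBP factors are basic leucine zipper proteins that bind DNA as homodimers or as heterodimers with each other. In the myeloid lineage, C/EBPα (Cebpa) is needed for the step from common progenitors to granulocyte-macrophage progenitors and restrains cell division, while C/EBPε (Cebpe) is needed later, for the proteins of the neutrophil secondary granules. C/EBPβ (Cebpb) serves emergency granulopoiesis and macrophages, C/EBPδ (Cebpd) is induced in inflammation and in maturing granulocytes, and C/EBPγ (Cebpg), which lacks a transactivation domain, acts as a dimer partner.

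Library totals lay between 20394762 and 29473127 reads, and each member had between 509 and 9803 reads in a library. Levels are given as CPM, a gene's reads scaled to the size of its library, with library sizes adjusted by the trimmed mean of M-values (TMM). Marker sums are CPM without that adjustment. DMSO replicate 2 stood apart before any comparison was made. It held 3630 reads of 4 genes on the Y chromosome (Uty, Kdm5d, Eif2s3y, Ddx3y), against 0 to 2 in each of the other 9 libraries, and 4.76 CPM of Xist, against 928 to 3051. Its summed level of 7 neutrophil markers was 652 CPM against 3815 in DMSO replicate 1, and its summed level of 4 stroma markers was 250 CPM against 3.75. Nearly all of that stroma sum was Col6a3, at 244 CPM against 3.19 CPM. Col1a1 lay between 0.273 and 0.288 CPM in the DMSO libraries, and Col3a1 was at 0 in both. By the Y-linked genes and Xist, DMSO replicate 2 came from male cells and the other 9 libraries from female cells. The sex or donor of the cells is thus part of each comparison that uses it, and its share was not tested. Comparisons with DMSO are therefore given with and without this library. All 9 myeloid progenitor markers, among them Kit and Myb, had reads in every library. Cd34, also among them, lay near the floor, from 0.0970 CPM in an EPZ5676 library to 2.35 CPM in an MM-401 library. The 5 erythroid markers summed to at most 1.43 CPM in a library, with Hba-a1 and Hbb-b1 at 0 in all 10, and the 4 B cell markers to at most 1.09 CPM, with Pax5 and Ebf1 at 0 in all. The 5 T cell markers summed to 1.57 to 5.27 CPM, nearly all of it Lck, with Cd3e and Cd8a at 0 in all. In a bulk library, fewer cells of a type and less RNA per cell cannot be told apart.

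The promoters of Cebpa, Cebpb and Cebpg are shown, the 3 of the 5 members with an entry in the RefSeq-derived table used here. Cebpd and Cebpe are named only. Of the 3, Cebpa was lower with MI-2-2, Cebpb was higher, and Cebpg was not called. Each line holds 300 bases on the gene's own strand, 250 before and 50 after the RefSeq start site, on GRCm38.p6 and not on the mm9 build named for the counts. The regions are chr7:35119043-35119342 (+) for Cebpa, chr2:167688665-167688964 (+) for Cebpb and chr7:35056517-35056816 (-) for Cebpg. Capitals mark 3 motifs on either strand, namely CCAAT, which NF-Y binds, the TATA box written as TATAAA, and the CREB and ATF core TGACG.
Cebpa: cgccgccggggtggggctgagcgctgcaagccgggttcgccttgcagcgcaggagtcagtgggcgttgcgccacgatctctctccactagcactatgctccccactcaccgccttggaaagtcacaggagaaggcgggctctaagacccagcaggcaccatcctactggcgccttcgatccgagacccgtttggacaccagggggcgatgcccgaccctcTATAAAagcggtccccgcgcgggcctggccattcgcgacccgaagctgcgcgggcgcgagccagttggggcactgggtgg
Cebpb: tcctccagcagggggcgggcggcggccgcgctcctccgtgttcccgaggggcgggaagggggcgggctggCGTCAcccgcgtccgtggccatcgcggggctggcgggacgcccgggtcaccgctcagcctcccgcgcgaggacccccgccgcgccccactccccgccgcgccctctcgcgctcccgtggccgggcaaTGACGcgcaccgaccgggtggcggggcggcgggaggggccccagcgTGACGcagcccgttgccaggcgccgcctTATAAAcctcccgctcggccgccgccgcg
Cebpg: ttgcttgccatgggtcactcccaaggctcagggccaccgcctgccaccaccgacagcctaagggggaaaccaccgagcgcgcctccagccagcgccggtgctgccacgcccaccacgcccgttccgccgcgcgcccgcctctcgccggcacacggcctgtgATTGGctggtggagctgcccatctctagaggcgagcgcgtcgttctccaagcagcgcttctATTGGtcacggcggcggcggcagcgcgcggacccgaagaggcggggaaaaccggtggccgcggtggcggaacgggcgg

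Positions are those of a motif's leftmost base on the gene's strand, counted from 1 at the start site and from -1 before it. The Cebpa promoter held TATAAA at -30. The Cebpb promoter held TATAAA at 22, which is after the start site used here. The motif was present in 13.6% of 32851 promoters of this length. Those promoters, called all promoters below, leave out 1 chromosome. TGACG occurred in Cebpb at -180, -53 and -7, and at least once in 20.8% of all promoters. Cebpg held CCAAT, on the other strand, at -89 and -28, against 37.4% of all promoters with at least 1. The C/EBP core TTGCNNAA, searched on both strands, was in none of the 3 windows and in 10.8% of all promoters. The 3 windows are rich in G and C, at 67.3% for Cebpa, 80.7% for Cebpb and 71.7% for Cebpg. No binding was measured in these libraries.

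The gene models place Cebpa and Cebpg next to each other on chromosome 7, on opposite strands, with no other coding gene between them. Cebpb, on chromosome 2, and Cebpd, on chromosome 16, have a single exon, and Cebpe, on chromosome 14, has 2. Exonic lengths are 2636 bases for Cebpa, 1504 for Cebpb, 3746 for Cebpd, 1241 for Cebpe and 5005 for Cebpg. Cebpd shares 562 exonic bases, 15.0% of its length, with Spidr on the opposite strand. The strand setting of the counting is not given in the sources used here, so reads of Cebpd and Spidr in that stretch cannot be told apart.

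Per length, Cebpe and Cebpb were the most abundant C/EBP transcripts of the DMSO cells, and the share of Cebpe ranged most widely over the conditions. In reads per exonic kilobase, Cebpe made up 31.0% and 36.4% of the family in DMSO replicates 1 and 2, Cebpb 34.7% and 25.9%, Cebpa 17.3% and 24.2%, Cebpd 9.56% and 9.16%, and Cebpg 7.44% and 4.36%. Cebpb and Cebpe changed places between the DMSO libraries, so their order in DMSO is not fixed. With EPZ5676 the share of Cebpe was 53.4% ± 9.88 (SD, n = 2), with MI-2-2 48.1% ± 2.28, with MM-401 38.5% ± 4.64 and with iBET 9.46% ± 2.53. In the iBET libraries Cebpb led the family with 42.9% ± 5.20, followed by Cebpa with 25.3% ± 2.77. The share of Cebpa was 7.39% ± 1.97 with EPZ5676 and 6.26% ± 1.03 with MI-2-2, below the lower DMSO library. Summed over the 5 genes, library-scaled reads per kilobase (RPKM) came to 301 and 245 in DMSO, 531 and 557 with EPZ5676, 520 and 465 with MI-2-2, 314 and 302 with MM-401, and 232 and 210 with iBET. These shares and sums were not tested.

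**Figure D1:**
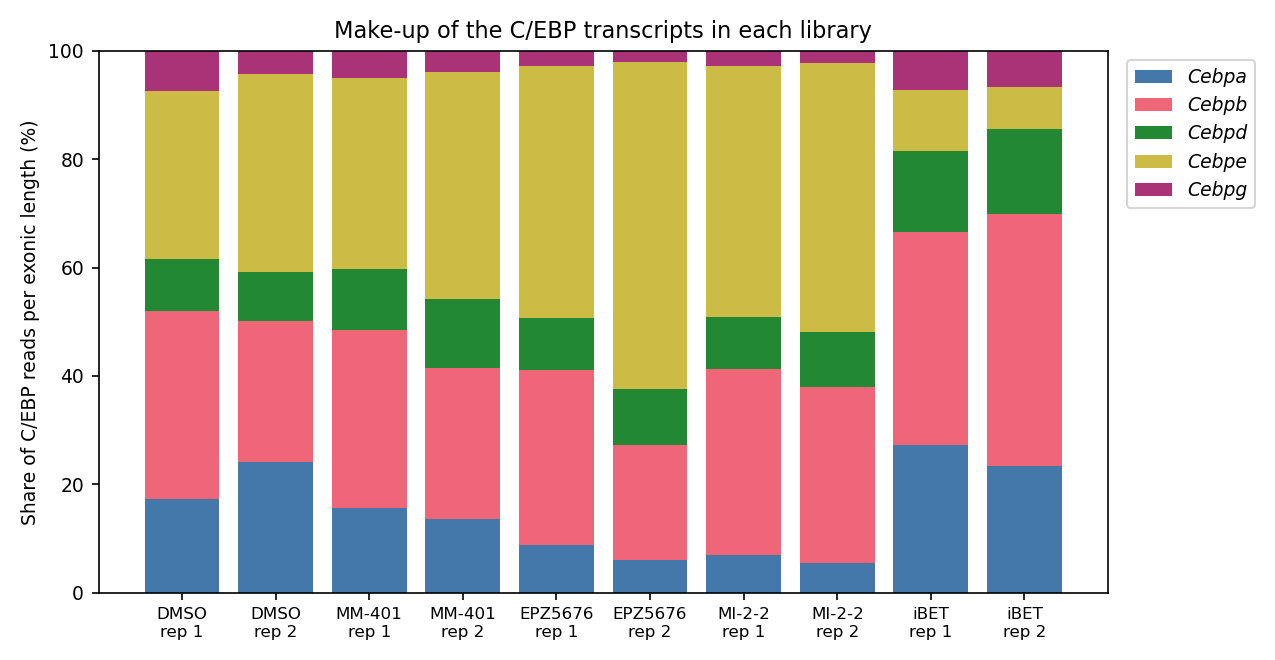
Share of each C/EBP gene, in percent of the 5 genes' reads per exonic length (vertical axis), in each of the 10 libraries (horizontal axis, 2 per condition); stacked bars add to 100. The Cebpe band is widest with EPZ5676 and MI-2-2, between 46.4% and 60.4%, and narrowest with iBET, at 11.2% and 7.67%.

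Cebpe, whose product drives terminal neutrophil maturation, moved in opposite directions with different inhibitors. Its level was 107 and 108 CPM in the DMSO libraries, 315 and 461 CPM with EPZ5676, 309.4 and 308.7 CPM with MI-2-2, 132 and 153 CPM with MM-401, and 31.3 and 19.5 CPM with iBET. No 2 conditions overlapped, and the iBET libraries stood lowest. Against DMSO, Cebpe rose 3.61-fold with EPZ5676 (log2 fold change 1.85, SE 0.25, edgeR adjusted p = 0.00154) and 2.87-fold with MI-2-2 (1.52, SE 0.25, adjusted p = 0.00277). It fell by 2.08 on the log2 scale with iBET (SE 0.25, adjusted p = 0.00437), which is 4.23-fold lower. With MM-401 the log2 difference of 0.40 (95% interval -0.16 to 0.96) did not pass (adjusted p = 0.588). Cebpe was nearly equal in the 2 DMSO libraries, and without DMSO replicate 2 the log2 fold changes were 1.88, 1.57 and -2.07 with EPZ5676, MI-2-2 and iBET (adjusted p = 0.00475, 0.00832 and 0.00519). All 3 calls held in each of the 4 fits that left out 1 library of the pair. In the fit of the DMSO and iBET libraries alone, the adjusted p of the fall was 0.0850.

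**Figure D2:**
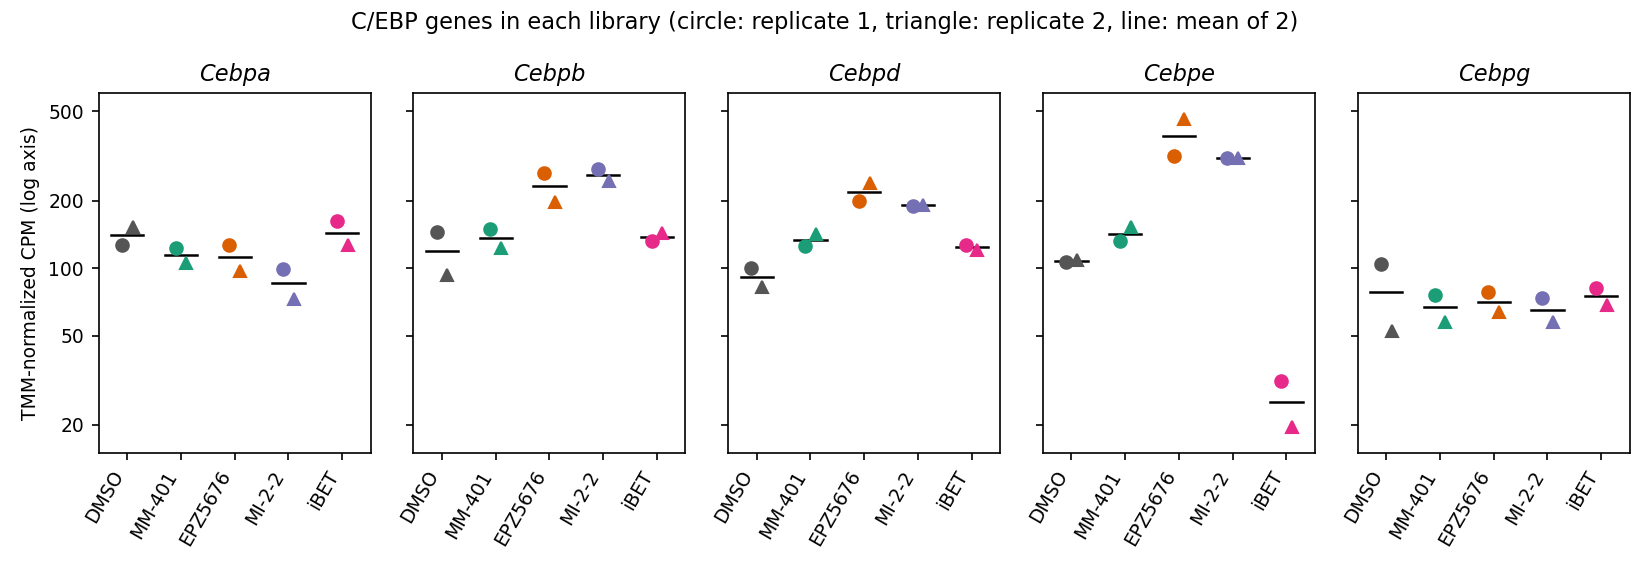
TMM-normalized CPM on a log axis (vertical) of each C/EBP gene (panels) in the 5 conditions (horizontal axis); circles are replicate 1, triangles replicate 2, and lines the mean of the 2 libraries. Cebpe spans from 19.5 CPM with iBET to 461 CPM with EPZ5676, while the 2 DMSO libraries of Cebpg, at 104 and 52.2 CPM, enclose the other 8 libraries of that gene.

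Cebpd, a factor of acute inflammation and granulocyte maturation, was lowest in DMSO. It measured 99.6 and 82.2 CPM there, 199 and 238 CPM with EPZ5676, 189.9 and 190.7 CPM with MI-2-2, 126 and 142 CPM with MM-401, and 127 and 120 CPM with iBET. Every inhibitor library exceeded both DMSO libraries, and the EPZ5676 and MI-2-2 libraries exceeded all others. Cebpd rose 2.40-fold with EPZ5676 (log2 1.27, SE 0.14, edgeR adjusted p = 0.000864) and 2.09-fold with MI-2-2 (log2 1.07, SE 0.14, adjusted p = 0.00137), and both calls held without either DMSO library. The log2 differences of 0.44 with iBET (95% interval 0.12 to 0.77, adjusted p = 0.0727) and 0.56 with MM-401 (0.23 to 0.88, adjusted p = 0.305) did not pass. Their size depended on the control: set against DMSO replicate 1 alone, Cebpd was higher by 0.31 with iBET and 0.41 with MM-401. The larger values of 0.59 and 0.71 had DMSO replicate 2, the library that stood apart, as their only control. With all 10 libraries, DESeq2 called both differences, at 0.42 with iBET (adjusted p = 0.0391) and 0.56 with MM-401 (adjusted p = 0.0242).

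Cebpb, which serves emergency granulopoiesis and macrophage genes, followed Cebpd in the direction of its calls but with a wide spread in DMSO. The DMSO libraries held 145 and 93.3 CPM, a ratio of 1.56. The level was 266 and 197 CPM with EPZ5676, 277 and 244 CPM with MI-2-2, 149 and 123 CPM with MM-401, and 132 and 143 CPM with iBET. The EPZ5676 and MI-2-2 libraries lay above all others, and those of MM-401 and iBET overlapped the range of DMSO. Cebpb rose 1.94-fold with EPZ5676 (log2 0.95, SE 0.23, edgeR adjusted p = 0.0148) and 2.18-fold with MI-2-2 (log2 1.13, SE 0.23, adjusted p = 0.00719). Without DMSO replicate 2 these values were 0.70 (adjusted p = 0.0394) and 0.88 (adjusted p = 0.0172), and without EPZ5676 replicate 1 that call was lost (0.73, adjusted p = 0.0863). In fits of the 4 libraries compared, neither passed (adjusted p = 0.0960 with EPZ5676 and 0.0619 with MI-2-2). The 95% intervals of the log2 difference from DMSO were -0.33 to 0.74 with iBET and -0.34 to 0.72 with MM-401.

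Cebpa, the factor of the progenitor stage, was the only member called lower with MI-2-2. It measured 127 and 153 CPM in DMSO, 98.9 and 73.0 CPM with MI-2-2, 127 and 97.3 CPM with EPZ5676, 123 and 105 CPM with MM-401, and 162 and 126 CPM with iBET. The MI-2-2 libraries lay below both DMSO libraries, those of EPZ5676 and MM-401 lay at or just below the lower DMSO library in replicate 1 and further below it in replicate 2, and those of iBET overlapped DMSO. Cebpa fell by 0.70 on the log2 scale with MI-2-2 (SE 0.21, edgeR adjusted p = 0.0305), 1.63-fold. The call was lost without DMSO replicate 2 (-0.53, adjusted p = 0.134) and without MI-2-2 replicate 2 (-0.49, adjusted p = 0.182), and did not pass in the fit of the 4 libraries compared (adjusted p = 0.0993). The log2 differences of -0.32 with EPZ5676 (95% interval -0.81 to 0.17), -0.29 with MM-401 (-0.78 to 0.20) and 0.04 with iBET (-0.45 to 0.53) did not pass.

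Cebpg, the dimer partner without a transactivation domain, was not called in any comparison. Its DMSO libraries held 104 and 52.2 CPM, a ratio of 1.99, and the other 8 libraries all lay between these values, from 57.2 to 81.1 CPM. Within replicate 1, Cebpg was lower than DMSO with every inhibitor (ratios 0.708 to 0.782), and within replicate 2 it was higher with every inhibitor (1.10 to 1.31). The direction of its difference from DMSO is thus set by which DMSO library is used. The 95% intervals of its log2 difference from DMSO ran from -0.97 to 0.65 over the 4 inhibitors, so differences within that range are compatible with these libraries.

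**Figure D3:**
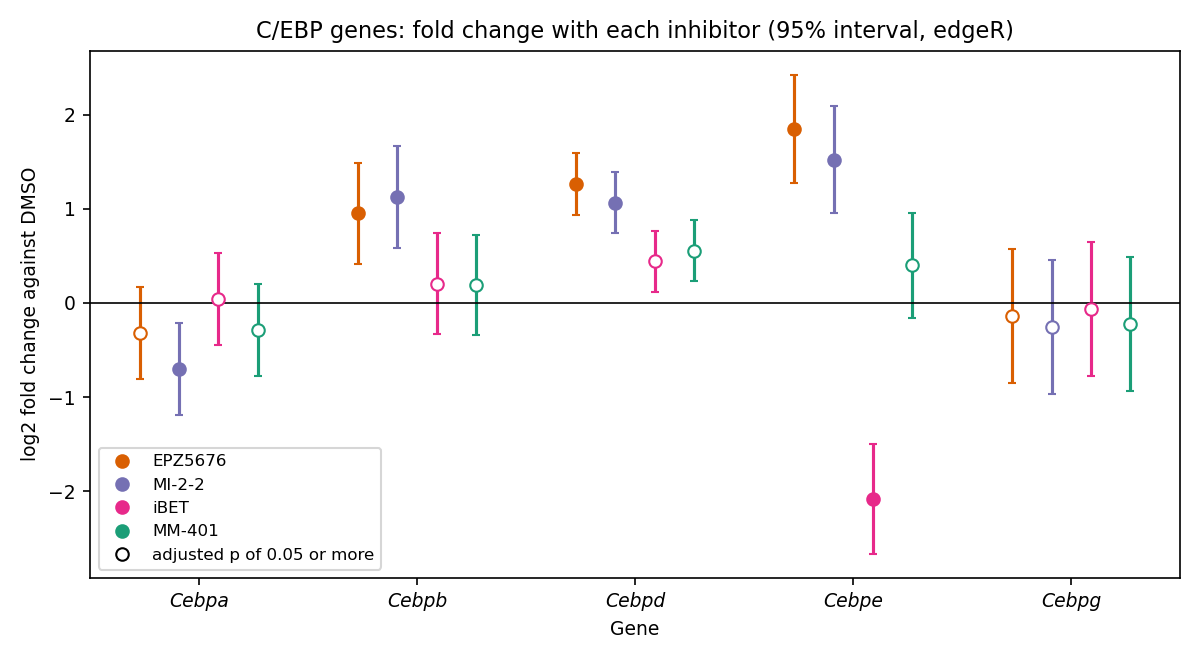
Log2 fold change against DMSO (vertical axis) of the 5 C/EBP genes (horizontal axis) with each inhibitor; bars are 95% intervals from edgeR, and filled points have an adjusted p under 0.05. Cebpb, Cebpd and Cebpe are filled and above 0 with EPZ5676 and MI-2-2, and the lowest point is Cebpe with iBET at -2.08.

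Counted together, 3 of the 5 members were called with EPZ5676, all higher, where 38.1% of all genes tested were called (18.7% higher and 19.4% lower). With MI-2-2 4 members were called, 3 higher and 1 lower, against 41.4% of all genes, 20.2% higher and 21.2% lower. With iBET 1 member was called, lower, against 13.9% of all genes, 6.38% higher and 7.54% lower (23.8% in all with the replicate number as a block, and the same single member). With MM-401 no member was called by edgeR, against 0% of all genes. At an unadjusted p under 0.05 it was 1 member, Cebpd, and 1450 genes, and DESeq2 called 1 member and 286 genes. The comparisons with DMSO share the 2 DMSO libraries. Scaling by total counts moved the median log2 fold change of all genes tested to -0.23 with EPZ5676 and -0.20 with MI-2-2, from -0.06 and -0.05, and the calls from 2430 higher and 2512 lower to 1930 and 3631 with EPZ5676, and from 2626 and 2747 to 2156 and 3659 with MI-2-2. The members called against DMSO kept their direction and their call under that scaling.

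Between inhibitors, the DMSO libraries are not part of the difference, though they take part in the estimate of spread. In all, 6 pairs were compared. Cebpe differed in 5 of them. It was 15.3-fold higher with EPZ5676 than with iBET (log2 3.93, SE 0.27, edgeR adjusted p = 0.000127) and 12.2-fold higher with MI-2-2 than with iBET (3.61, SE 0.27, adjusted p = 0.000170). With iBET it was 5.60-fold lower than with MM-401 (-2.49, SE 0.26, adjusted p = 0.00258). It was 2.73-fold higher with EPZ5676 than with MM-401 (1.45, SE 0.25, adjusted p = 0.00454), and 2.17-fold higher with MI-2-2 than with MM-401 (1.12, SE 0.24, adjusted p = 0.0104). The last call was lost without MI-2-2 replicate 2 (1.13, adjusted p = 0.0504) and without MM-401 replicate 1 (1.02, adjusted p = 0.0799) or 2 (1.23, adjusted p = 0.0547), and the other 4 held in each such fit.

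The calls of the other members between inhibitors were smaller, and less stable on leaving out 1 library. In fits of the 4 libraries compared, the number of members called, Cebpe included, did not change. It was 3 between EPZ5676 and iBET or MM-401, 4 between MI-2-2 and iBET, and 3 between MI-2-2 and MM-401. Cebpd was higher with EPZ5676 than with iBET (log2 0.82, SE 0.14, edgeR adjusted p = 0.00342) and than with MM-401 (0.71, SE 0.14, adjusted p = 0.00787), and higher with MI-2-2 than with iBET (0.62, SE 0.14, adjusted p = 0.0108) and than with MM-401 (0.51, SE 0.14, adjusted p = 0.0247). Of these 4 calls, that of EPZ5676 against iBET held in 4 of 4 fits that left out 1 library, that of EPZ5676 against MM-401 in 2 of 4 (lost without EPZ5676 replicate 2, adjusted p = 0.0505, and without MM-401 replicate 1, adjusted p = 0.0740), and both of MI-2-2 in 0 of 4. Cebpb was higher with EPZ5676 than with iBET (0.75, SE 0.23, adjusted p = 0.0363) and MM-401 (0.77, SE 0.23, adjusted p = 0.0373), and higher with MI-2-2 than with iBET (0.92, SE 0.23, adjusted p = 0.0171) and MM-401 (0.94, SE 0.23, adjusted p = 0.0171). Against iBET these calls held in 1 of 4 such fits, the one without EPZ5676 replicate 2 or MI-2-2 replicate 2, and against MM-401 in 0 of 4. Under total-count scaling Cebpb was no longer called between EPZ5676 and iBET (0.62, adjusted p = 0.0905) or MM-401 (0.63, adjusted p = 0.0941), nor Cebpd between MI-2-2 and MM-401 (0.38, adjusted p = 0.0593). Cebpa was lower with MI-2-2 than with iBET (-0.74, SE 0.21, adjusted p = 0.0266), a call that held in 1 of 4 fits, the one without MI-2-2 replicate 1.

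EPZ5676 and MI-2-2 were not told apart by any member. The log2 differences, EPZ5676 minus MI-2-2, were 0.38 for Cebpa (95% interval -0.11 to 0.87), -0.17 for Cebpb (-0.70 to 0.36), 0.20 for Cebpd (-0.12 to 0.52), 0.33 for Cebpe (-0.23 to 0.89) and 0.12 for Cebpg (-0.60 to 0.83). No member had an unadjusted p under 0.05, 0.0154% of all genes tested were called by edgeR, and DESeq2 called 0 members and 156 genes. In the other pairs, 3 members were called between EPZ5676 and iBET (37.6% of all genes), 3 between EPZ5676 and MM-401 (33.3%), 4 between MI-2-2 and iBET (38.8%), 3 between MI-2-2 and MM-401 (35.7%), and 1 between iBET and MM-401 (11.4%, and 19% with the replicate block). Total-count scaling moved the split of higher and lower calls from 2482 and 2397 to 2185 and 3493 for EPZ5676 against iBET, from 2171 and 2149 to 1738 and 3157 for EPZ5676 against MM-401, from 2553 and 2481 to 2205 and 3417 for MI-2-2 against iBET, and from 2341 and 2289 to 1927 and 3174 for MI-2-2 against MM-401.

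A list of 14 neutrophil granule genes that depend on C/EBPε, all of which passed the filter, had 12 genes higher and 0 lower with EPZ5676, with a median log2 fold change of 4.98, where all genes tested had a median of -0.06 and 18.7% were called higher. With MI-2-2 it had 12 higher and 0 lower, with a median of 4.80, where all genes had -0.05 and 20.2% were called higher. With iBET 0 genes rose and 6 fell, with a median of -2.09, against -0.04 for all genes and 7.54% called lower. Leaving out DMSO replicate 2 raised the number that fell with iBET to 12, and leaving out DMSO replicate 1 gave 5. Without either iBET library only Camp was still called, so that 1 gene fell. Of the 8 genes not called with iBET, Mmp8 had a log2 difference of 0.23, Cd177 of -0.34 and Lcn2 of -1.04, named here after their values were seen. With MM-401 no gene of the list was called, with a median of 1.26. Without DMSO replicate 1, 9 rose and 1 fell, and without DMSO replicate 2 none was called. DESeq2 called 4 higher with MM-401.

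Ltf, which encodes lactoferrin, measured 25.2 and 8.92 CPM in DMSO, 3194 and 4829 CPM with EPZ5676, 4053 and 5093 CPM with MI-2-2, 59.2 and 84.4 CPM with MM-401, and 8.44 and 5.47 CPM with iBET. It rose by 7.87 on the log2 scale with EPZ5676 (SE 0.62, edgeR adjusted p = 0.000373) and by 8.06 with MI-2-2 (SE 0.62, adjusted p = 0.000316), with no overlap between those libraries and any other condition. Camp, the cathelicidin gene, measured 52.7 and 39.3 CPM in DMSO and 2.96 and 3.10 CPM with iBET, and fell by 3.92 on the log2 scale (SE 0.27, adjusted p = 0.000818). Its libraries stood at 2466 and 3496 CPM with EPZ5676, 1367 and 1354 CPM with MI-2-2, and 94.8 and 127 CPM with MM-401. Chil3, a chitinase-like lectin of neutrophils and macrophages, rose by 7.06 with EPZ5676, and Mmp9, the gelatinase, rose by 6.83 with MI-2-2 (log2 scale, adjusted p = 0.000690 and 0.000328). Itgb2l fell by 3.79 with iBET (adjusted p = 0.0214), a call that was lost without either iBET library. Hp and Bpi were the 2 genes of the list not called with EPZ5676 or MI-2-2, at log2 0.93 and -0.61 with EPZ5676 and 0.25 and -0.44 with MI-2-2. They are named after their values were seen.

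Summed over the list, the granule genes reached 1406 and 858 CPM in DMSO, 1894 and 2387 CPM with MM-401, 25415 and 33723 CPM with EPZ5676, 24545 and 25335 CPM with MI-2-2, and 338 and 178 CPM with iBET. The order of the conditions was that of Cebpe. DMSO replicate 1 exceeded replicate 2 in this sum, while Cebpe was nearly equal in them. The 7 neutrophil markers, 5 of them on the list of granule genes, summed to 47320 and 60352 CPM with EPZ5676, 42223 and 41013 CPM with MI-2-2 and 1175 and 497 CPM with iBET, and their part in the Cebpe result was not tested. The 4 megakaryocyte markers, all with reads in every library, summed to 28.6 to 70.1 CPM in the EPZ5676 and MI-2-2 libraries and to 2.42 to 8.08 CPM in the other 6, and the B cell sum was 0.941 to 1.09 CPM in the former and at most 0.354 CPM in the latter; their part in the result was not tested either. The 9 progenitor markers, 4 of which are Mpo, Elane, Ctsg and Prtn3, summed to 11239 and 14494 CPM in DMSO, 11819 and 12041 CPM with MM-401, 3259 and 3269 CPM with EPZ5676, 2998 and 2221 CPM with MI-2-2, and 7595 and 6741 CPM with iBET. Those 4, with DMSO means of 2602, 4102, 1933 and 2228 CPM, carried most of the sum. The markers did not all move alike. With EPZ5676 mean Myb was 273 CPM against 820 CPM in DMSO. Kit lay at 111 to 139 CPM with EPZ5676, between the DMSO libraries at 45.9 and 180 CPM, so it showed no direction. With iBET mean Ctsg was 3520 CPM, and Hoxa9 512 CPM against 412 CPM in DMSO.

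**Figure D4:**
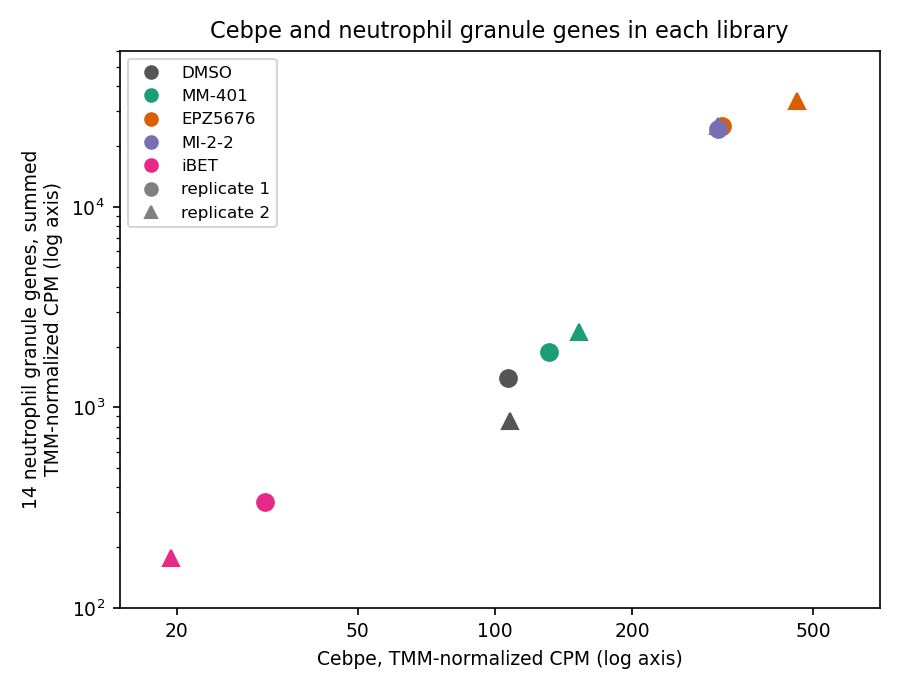
Cebpe in TMM-normalized CPM (horizontal, log axis) against the sum of 14 neutrophil granule genes in the same unit (vertical, log axis), 1 point per library, colored by condition; circles are replicate 1 and triangles replicate 2. The iBET libraries lie lowest on both axes, at 338 and 178 CPM for the sum, and the EPZ5676 and MI-2-2 libraries highest.

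Among 12 promyelocyte genes with known C/EBP sites, all of which passed the filter, changes split within the list. With EPZ5676 and with MI-2-2, 6 rose and 4 fell, with medians of 0.67 and 0.88 on the log2 scale. Of all genes tested, 18.7% were called higher and 19.4% lower with EPZ5676, and 20.2% and 21.2% with MI-2-2. The 4 that fell were the same with both, Mpo, Elane, Prtn3 and Ctsg, the enzymes of primary granules, and the 6 that rose were Csf3r, Csf2ra, Lyz1, Lyz2, Fcnb and Igsf6. Without EPZ5676 replicate 2 the calls of Mpo and Elane were lost, leaving 5 higher and 2 lower with EPZ5676, and without MI-2-2 replicate 2 that of Ctsg was lost, leaving 6 higher and 3 lower with MI-2-2. Lyz2, lysozyme, measured 282 and 261 CPM in DMSO, 3562 and 5389 CPM with EPZ5676, 2626 and 3828 CPM with MI-2-2, 619 and 632 CPM with MM-401, and 1022 and 1147 CPM with iBET. It was the 1 gene of the list that rose with iBET (log2 2.00, SE 0.25, edgeR adjusted p = 0.00500), beside a rise of 4.04 with EPZ5676 and 3.57 with MI-2-2. Fcnb, a ficolin, rose by 5.20 with EPZ5676 (adjusted p = 0.00170), and Csf3r, the G-CSF receptor, by 2.97 with MI-2-2 (adjusted p = 0.000611).

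Elane, neutrophil elastase, measured 4195 and 4009 CPM in DMSO, 1427 and 1222 CPM with EPZ5676, 1039 and 644 CPM with MI-2-2, 3674 and 3198 CPM with MM-401, and 747 and 376 CPM with iBET. It fell by 2.29 with MI-2-2 (log2 scale, SE 0.35, adjusted p = 0.00232) and by 2.87 with iBET (SE 0.36, adjusted p = 0.00477), with no overlap with DMSO. Mpo, myeloperoxidase, differed between the DMSO libraries, with 386 CPM in replicate 1 and 4817 CPM in replicate 2. It measured 167 and 367 CPM with EPZ5676, 19.6 and 52.0 CPM with MI-2-2, and 14.6 and 16.1 CPM with iBET, with log2 fold changes of -3.28, -6.18 and -7.40 (adjusted p = 0.0398, 0.00563 and 0.0114). The smallest of its log2 changes on leaving out 1 library were -0.51, -3.40 and -4.65, each without DMSO replicate 2, where that of EPZ5676 was no longer called. The calls of Mpo were also lost without either EPZ5676 library or, for iBET, either iBET library. Ctsg, cathepsin G, fell by 2.34 with EPZ5676 (SE 0.36, adjusted p = 0.00241). Of all genes tested, 6.38% were called higher and 7.54% lower with iBET, and 0% were called with MM-401. With iBET the list had 1 gene higher and 3 lower (Mpo, Elane and Fcnb, median -0.06; 3 higher and 4 lower by DESeq2, and 2 higher and 4 lower without either DMSO library; Elane alone remained lower without either iBET library, where Mpo and Fcnb lost their calls), and with MM-401 it had none called (median 0.44), 2 higher by DESeq2, and 4 higher and 1 lower without DMSO replicate 1.

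Of 16 macrophage and inflammatory genes linked to C/EBPβ and C/EBPδ, 12 passed the filter, and Il6, Il10, Csf3 and Ptx3 did not. With EPZ5676 7 rose and 0 fell (median log2 fold change 1.69), where 18.7% of all genes tested were called higher. With MI-2-2 8 rose and 0 fell (median 2.34), against 20.2% of all genes called higher. With iBET 6.38% of all genes were called higher and 7.54% lower. Without MI-2-2 replicate 2, 5 rose with MI-2-2, the calls of Il1b, Ccl3 and Csf1r being lost. With EPZ5676 5 to 8 rose on leaving out 1 library, and Csf1r was called in 1 of those 4 fits. Msr1, a scavenger receptor, measured 0.857 and 1.49 CPM in DMSO, 59.9 and 90.3 CPM with EPZ5676, 26.6 and 73.8 CPM with MI-2-2, 5.07 and 5.13 CPM with MM-401, and 0.530 and 1.49 CPM with iBET. It rose by 6.01 with EPZ5676 (log2 scale, SE 0.66, edgeR adjusted p = 0.000824) and by 5.43 with MI-2-2 (SE 0.65, adjusted p = 0.000976). Il1rn, the interleukin-1 receptor antagonist, rose by 4.27 with EPZ5676 and by 5.15 with MI-2-2 (adjusted p = 0.000568 and 0.000338). With iBET Tnf was called higher (1.21, adjusted p = 0.0407), and Cd14 and Il1rn lower (-1.19 and -1.40, adjusted p = 0.0185 and 0.0477), and each of the 3 calls was lost without either iBET library, that of Tnf also without DMSO replicate 2 and that of Il1rn also without DMSO replicate 1. DESeq2 called 2 higher and 3 lower. With MM-401 none was called (median 0.42). DESeq2 called 2 higher, and without DMSO replicate 1 there was 1 higher. The 7 macrophage markers, 2 of which (Msr1 and Csf1r) are on the list, summed to 339 to 703 CPM in the EPZ5676 and MI-2-2 libraries and to 66.7 to 122 CPM in the other 6, with C1qa and C1qb at 0 in DMSO replicate 2, and their part in the changes of this list was not tested.

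Among 19 dimer partners and regulators of C/EBP factors, 17 passed the filter, all but Batf3 and Trib2. With EPZ5676 4 rose and 1 fell (median 0.32), where 38.1% of all genes tested were called. With MI-2-2 5 rose and 2 fell (median 0.24), against 41.4% of all genes. Neither count was above the share over all genes. That share was 13.9% with iBET and 0% with MM-401. Trib1, a pseudokinase that guides C/EBPα to degradation through the ligase COP1, measured 1.25 and 2.30 CPM in DMSO, 26.4 and 23.3 CPM with EPZ5676, 46.6 and 69.9 CPM with MI-2-2, 4.90 and 2.65 CPM with MM-401, and 3.8 and 1.53 CPM with iBET. It rose by 3.82 with EPZ5676 (log2 scale, SE 0.52, edgeR adjusted p = 0.00165) and by 5.05 with MI-2-2 (SE 0.55, adjusted p = 0.000774). Id2, an inhibitor of basic helix-loop-helix factors, measured 13.2 and 6.66 CPM in DMSO, 221 and 241 CPM with EPZ5676, and 133 and 160 CPM with MI-2-2, a rise of 4.53 and 3.88 on the log2 scale (adjusted p = 0.000319 and 0.000393).

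Atf3 and Spi1, which encodes the partner factor PU.1, were the other genes of that list called higher with both inhibitors, and Egr1 was called with MI-2-2. Cebpz, a CCAAT-binding protein outside the C/EBP family despite its symbol, fell by 0.81 with EPZ5676 and 0.84 with MI-2-2 (log2 scale, adjusted p = 0.00547 and 0.00455). Atf4, a dimer partner of the stress response, fell by 0.74 with MI-2-2 (adjusted p = 0.0117), a call that was lost without MI-2-2 replicate 2. With iBET 1 gene, Id1, was called higher (1.06, adjusted p = 0.0311), lost without DMSO replicate 2 or either iBET library, and the list had 2 higher and 2 lower without DMSO replicate 1 and 2 higher and 1 lower without DMSO replicate 2. With MM-401 none was called by edgeR or DESeq2, and without DMSO replicate 1 there was 1 higher and 1 lower.

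**Figure D5:**
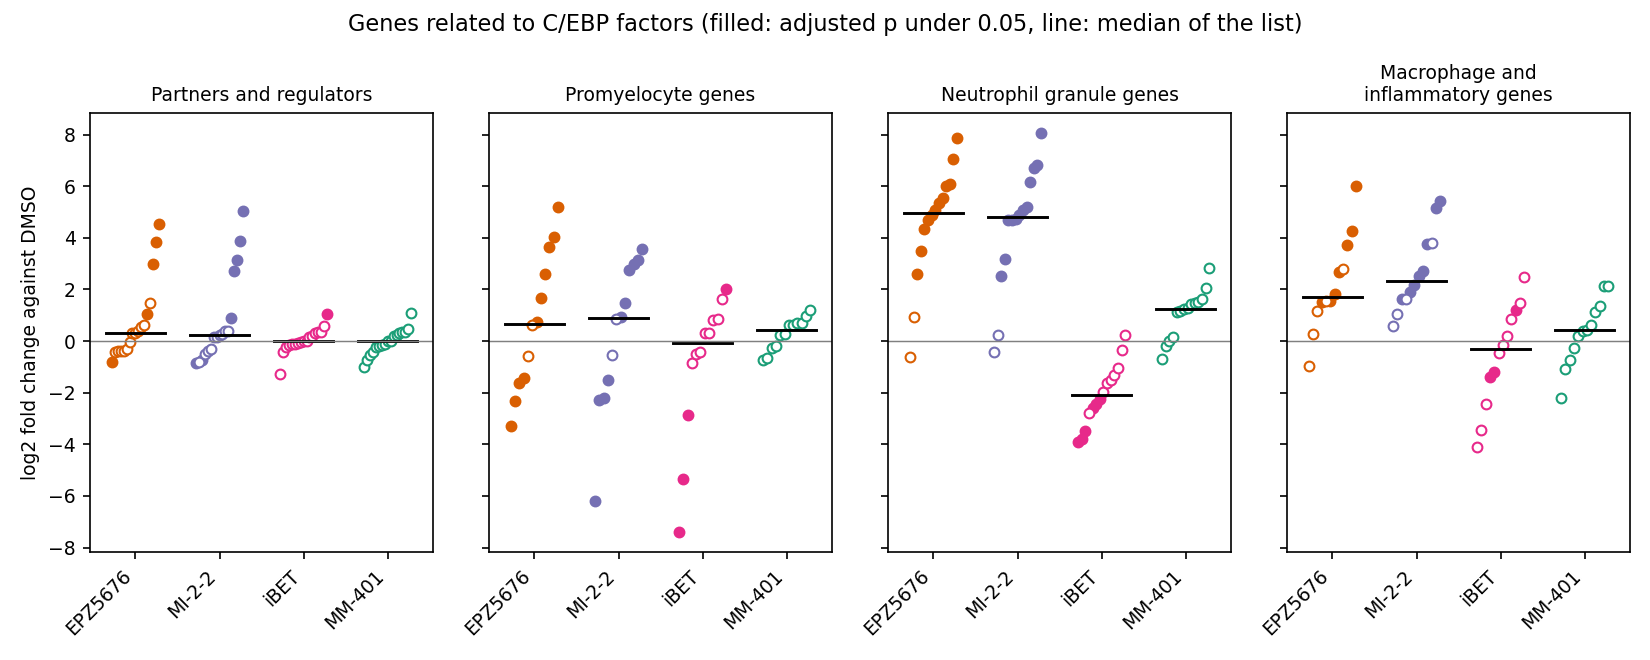
Log2 fold change against DMSO (vertical axis) of each tested gene of 4 lists related to C/EBP factors (panels) with each inhibitor (horizontal axis), sorted by value; filled points have an edgeR adjusted p under 0.05 and lines are list medians. The median of the granule genes is 4.98 with EPZ5676, 4.80 with MI-2-2, -2.09 with iBET and 1.26 with MM-401, where no point is filled.

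The genes closest in pattern to each member were sought by Pearson's r of log2 CPM over the 10 libraries, among the 9940 genes whose mean reached 5 CPM. These r values describe libraries that share conditions, depth and the DMSO pair. For Cebpe they were Fcgr4 (0.989), which encodes an Fc receptor of myeloid cells, Unc13d (0.986), which serves granule release, and Mapk4 (0.985). For Cebpd they were Hmgn2 (0.989), Tnfrsf1a (0.989), the TNF receptor gene, and Pqlc1 (0.988). For Cebpb they were Ddx60 (0.979), Ube2l6 (0.979) and Polm (0.976), for Cebpa Uhrf2 (0.944), Klhl22 (0.936) and Cnnm2 (0.921), and for Cebpg Atg4c (0.942), Pex11g (0.930) and Spidr (0.924), the gene whose exons overlap Cebpd. Over the 8 inhibitor libraries none of these 15 genes stayed among the 3 closest. Within the family, r over the 10 libraries was 0.85 between Cebpb and Cebpd, 0.67 between Cebpd and Cebpe and 0.62 between Cebpb and Cebpe, and Cebpa had -0.63, -0.68 and -0.64 with Cebpb, Cebpd and Cebpe. Over the 8 inhibitor libraries these were 0.79, 0.87 and 0.70, and -0.51, -0.60 and -0.67.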

How the data were processed

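RNA of MAF9 cells was sequenced after 4 days of treatment, with 2 libraries for each of 5 conditions, grouped by their labels. The deposited values are raw read counts per gene, made by the authors and not normalized. The submitters' notes name TopHat2, Subread, DESeq and the build mm9, without versions. For the strand setting, the sources used here give nothing.

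The 5 members, the related gene lists and the markers were chosen with earlier results of these data known. The edgeR package (4.0.16, under R 4.3.3) was used with filterByExpr, TMM factors and its quasi-likelihood F test, all 10 libraries entering 1 model, and p-values were adjusted by the Benjamini-Hochberg method over all 12971 genes tested in a comparison, with a threshold of 0.05. The SE is the log2 fold change divided by the square root of F. No source says that duplicates are separate cultures, so p-values measure the spread between these libraries. By the Y-linked reads and Xist, the 2 DMSO libraries did not hold the same cells, and their spread includes that difference. The fit was also run on simulated counts in which few genes changed, and in 1 condition only. That setting differs from these data, and no result above rests on it. All members are named, with the 3 genes closest to each, and for each list and inhibitor against DMSO up to 2 genes per direction with the largest called change and at least 5 CPM in the higher group; further genes are named as the calls of a list or as those not called. Libraries of the same replicate number, which comes from the labels, deviated together from their group means (r from 0.278 to 0.666 in all 10 pairs of groups). The main model did not pair them. DMSO replicate 2 held 3630 Y-linked reads and each other replicate 2 library at most 2, so its number does not mark cells shared with them. Alternatives were DESeq2 1.42.0, other scalings and filters, a replicate block, fits of 4 libraries and leaving out each library. Lengths came from GENCODE M21, which is on another build than the counts and was used for lengths, chromosomes and neighbours only.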

Additional observations from a re-analysis of the deposited data

How the results depend on the processing

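With 2 libraries per condition, calls with an adjusted p near 0.05 depend on single libraries. Directions of Cebpb, Cebpd and Cebpe with EPZ5676 and MI-2-2, of Cebpa with MI-2-2 and of Cebpe with iBET, all against DMSO, were the same under every alternative run, and 81 of their 88 values also kept their call. Of 154 values of the called inhibitor pairs, 121 kept it. The alternatives for the related lists were chosen after seeing the data. With the replicate number as a block, no member's call changed (3, 4, 1 and 0 members with EPZ5676, MI-2-2, iBET and MM-401 against DMSO), and the calls of all genes for iBET rose from 1806 to 3088 against DMSO and from 1484 to 2470 against MM-401.

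The number of members called was 2 with MI-2-2 and 0 with iBET in fits of the 4 libraries compared. By DESeq2 it was 2 with iBET and 1 with MM-401. The cause of these shifts was not tested. Fits of 4 libraries hold fewer samples, and between inhibitors they called more genes than the main model. For MI-2-2 against MM-401 these were 6425 genes instead of 4630, and for EPZ5676 against MM-401 5702 instead of 4320. A library left alone in its condition was assumed to vary like the other conditions. On leaving out 1 library, the number of members called ranged from 3 to 4 with MI-2-2, 1 to 2 with iBET and 0 to 1 with MM-401 against DMSO, 1 to 2 for EPZ5676 against MM-401, 1 to 2 for MI-2-2 against iBET and 0 to 1 for MI-2-2 against MM-401. For all genes, DESeq2 called 2830 with iBET against DMSO and 2342 against MM-401, and the fits of 4 libraries called 1174 against 4942 with EPZ5676, 1147 against 5373 with MI-2-2 and 0 against 1806 with iBET, and 4223 against 1484 between iBET and MM-401. With 1 library left out, all-gene calls against DMSO ranged from 2639 to 6808 (EPZ5676), 2772 to 7197 (MI-2-2), 150 to 3720 (iBET) and 0 to 1368 (MM-401), and those against MM-401 from 1556 to 2612 (EPZ5676), 1729 to 2613 (MI-2-2) and 183 to 274 (iBET), and those against iBET from 2248 to 3247 (EPZ5676, 4879 with all libraries) and 2096 to 2825 (MI-2-2, 5034 with all).

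Reversals touched only differences that were not called. On leaving out 1 library, those of Cebpg from DMSO ranged from -0.52 to 0.44 (EPZ5676), -0.63 to 0.33 (MI-2-2), -0.47 to 0.52 (iBET) and -0.65 to 0.36 (MM-401) on the log2 scale, those of Cebpb from -0.079 to 0.57 (iBET) and -0.11 to 0.55 (MM-401), and that of Cebpa from -0.14 to 0.21 (iBET). Between inhibitors, Cebpg ranged from -0.055 to 0.31 (EPZ5676 against MI-2-2), -0.23 to 0.063 (EPZ5676 against iBET), -0.11 to 0.30 (EPZ5676 against MM-401, -0.058 with total-count scaling), -0.22 to 0.18 (MI-2-2 against MM-401) and -0.026 to 0.38 (iBET against MM-401). Cebpb ranged from -0.40 to 0.027 (EPZ5676 against MI-2-2) and -0.11 to 0.17 (iBET against MM-401, -0.0065 with DESeq2 or its size factors), and Cebpa from -0.23 to 0.15 (EPZ5676 against MM-401, 0.0070 with DESeq2 size factors and 0.0071 with DESeq2).

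Without division by length, the shares (order of values DMSO, then EPZ5676, MI-2-2, iBET and MM-401) were 26.5%, 11%, 9.39%, 28.4% and 19.3% for Cebpa, 22%, 22.8%, 28.6%, 27.4% and 22.9% for Cebpb, 17.0%, 21.4%, 20.9%, 24.5% and 22.6% for Cebpd, 20.2%, 37.8%, 34.0%, 4.98% and 24.0% for Cebpe, and 14.2%, 6.97%, 7.15%, 14.8% and 11.2% for Cebpg. Over the 8 inhibitor libraries, 0 of the 3 closest genes of Cebpa, Cebpb, Cebpd, Cebpe or Cebpg were the same.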
